A study of Mus musculus with 9 samples.

Results

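Short fragments from the 5' end of nuclear tRNAs, of the classes tRF-5a and tRF-5b, were described in mouse eyes after laser injury. The deposited table gives each fragment a class, and the members are its rows with class tRF-5a or tRF-5b and no mitochondrial chromosome in the name. They numbered 32 of the 200 listed fragments: 28 tRF-5a of 14 to 16 nt and 4 tRF-5b of 22 to 24 nt. A further 6 mitochondrial fragments of these classes were left out. Of the rest, 102 were longer nuclear 5' fragments, 33 nuclear 3' fragments and 15 nuclear trailers.

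Transfer RNAs carry amino acids to the ribosome, and cells cut them into stable fragments. Cuts in or near the D loop, the first loop from the 5' end, leave tRF-5a and tRF-5b; cuts in the anticodon stem leave tRF-5c, and cuts in the anticodon loop, known to be made by angiogenin under stress, leave tiRNA-5. Longer 5' fragments are known to restrain translation, and angiogenin is also known for promoting vessel growth. The roles of the shortest 5' fragments are less well known.

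Small RNA was sequenced from complexes of retinal pigment epithelium (RPE), choroid and sclera of C57BL/6 mice with no stated transgene. In each of 3 groups, 3 complexes were used: day 3 after laser, day 7 after laser, and control mice with no treatment. Lasered mice were 6 to 8 weeks old and received burns of a 532 nm laser (110 mW, 100 ms) that break Bruch's membrane, the sheet under the RPE, so that choroidal vessels grow in; the age of the controls was not stated separately. Whether the complexes are from different animals is not stated, so the p-values cover the spread between samples, some of which may be technical. The table holds tRNA fragments only, so the tissue could not be checked against marker genes. In whole tissue, fewer cells with a fragment and less of it per cell cannot be told apart.

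The sequences of the named members are shown because the lengths and shared runs that follow can be read from them. In a name, the numbers before and after the colon are the first and last base in the mature tRNA, followed by the amino acid and anticodon of the parent. Capitals mark GGCCGAG, the run shared by nearly all leucine and serine members; sequences are written 5' to 3' with T for U, as deposited.

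tRF-1:15-Ser-GCT-1-M4: gacgaggtGGCCGAG
tRF-1:16-Ser-GCT-1-M4: gacgaggtGGCCGAGt
tRF-1:15-Ser-AGA-1-M3: gtagtcgtGGCCGAG
tRF-1:16-Ser-TGA-1: gcagcgatGGCCGAGt
tRF-1:15-Leu-TAA-1: accagaatGGCCGAG
tRF-1:15-Leu-TAA-2: accaggatGGCCGAG
tRF-1:16-Leu-AAG-1-M2: ggtagcgtGGCCGAGc
tRF-1:16-Leu-AAG-2-M3: ggtagtgtGGCCGAGc
tRF-1:16-Leu-CAG-1-M3: gtcaggatGGCCGAGc
tRF-1:16-Gly-TCC-1: gcgttggtggtatagt
tRF-1:16-Gly-GCC-2-M3: gcattggtggttcagt
tRF-1:15-Gly-ACC-1-M8: gtttccgtagtgtag
tRF-1:23-Val-AAC-1-M4: gtttccgtagtgtagtggttatc
tRF-1:15-Ala-AGC-3-M12: ggggatgtagctcag
tRF-1:16-Ala-CGC-3-M3: ggggatgtagctcaga
tRF-1:15-Lys-TTT-1: gcccggatagctcag
tRF-1:16-Tyr-GTA-3-M2: ccttcgatagctcagc

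For context, 2 whole parents are given as deposited, with the CCA tail and with the 16 nt member in capitals. The serine parent shows the extra length of the tRNAs with a long variable arm.

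tRNA-Ser-GCT-1-1: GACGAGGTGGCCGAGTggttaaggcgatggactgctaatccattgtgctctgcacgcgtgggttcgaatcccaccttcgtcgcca
tRNA-Gly-TCC-1-1: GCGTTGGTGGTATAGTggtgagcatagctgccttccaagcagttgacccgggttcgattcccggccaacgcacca

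Leucine and serine tRNAs supplied most of the short 5' fragments. There were 10 leucine and 8 serine members, beside 5 glycine, 4 alanine, 2 lysine, 2 valine and 1 tyrosine members. The other classes had another make-up: leucine and serine had 0 listed tRF-5c or tiRNA-5 fragments, although 5 leucine and 1 serine 3' fragments were listed. Conversely, glutamate had 21 longer 5' fragments, proline 8, histidine 7 and aspartate 3, with 0 short members from any of these 4. Leucine and serine tRNAs are known for their long variable arm, and their parents here measured 85 to 87 nt, against 74 to 77 nt for the parents of the other members. Fragments outside the table were not analysed here: each listed fragment reached at least 20.1 CPM (counts scaled to the mapped reads of a library) in at least 1 library.

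**Figure D1:**
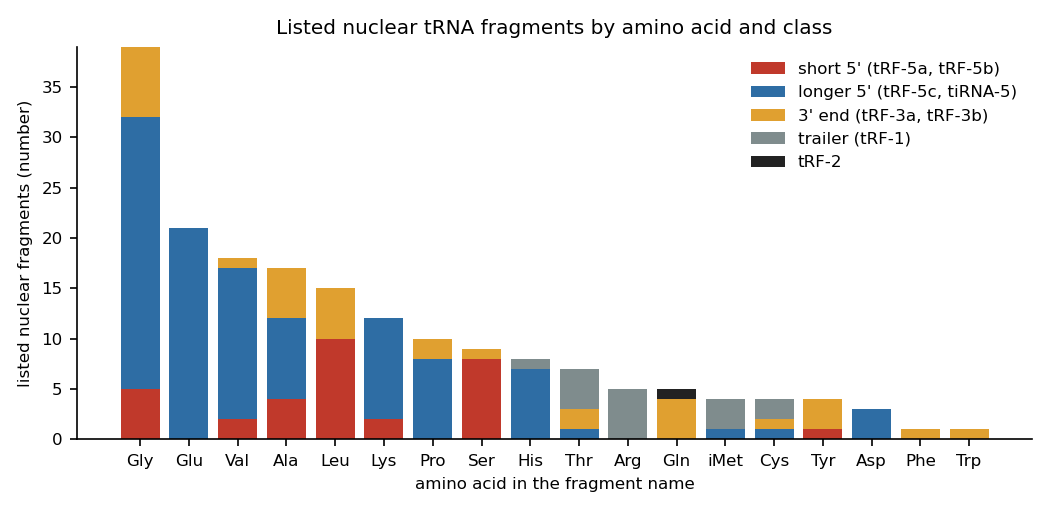
Number of listed nuclear fragments (y axis) by amino acid (x axis), stacked by class. The leucine and serine bars hold 10 and 8 short 5' fragments and 0 longer ones, while the glutamate bar holds 21 longer 5' fragments and 0 short ones.

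The run GGCCGAG, searched on the fragment's own strand, was in 16 of the 32 members and in 8.0% of all 200 listed fragments. It was found in 16 of the 18 leucine and serine members and in 0 fragments of the other classes; the other 2 are 14 nt long and stop 1 base short of its end. It covered bases 9 to 15 of each, a stretch that in these tRNAs is part of the A box, the internal promoter read by the RNA polymerase III machinery, and of the D arm. All 12 members of 15 nt ended in G, and no other member did. Lengths of nuclear 5' fragments fell into separate blocks: 14 nt (3), 15 nt (12), 16 nt (13), 22 nt (1), 23 nt (1) and 24 nt (2), then 28 to 34 nt for the longer classes.

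Many members share parents, so they are not independent. By their first 14 bases they formed 16 families of up to 4 members, and members of a family share their start. Of the 32, 23 matched more than 1 tRNA gene in the deposited alignments, 13 more than 1 anticodon and 1 more than 1 amino acid. Reads of such members cannot be assigned to a single gene. Some members differ by a single base, counted from 1 at the 5' end with the base of the first-named fragment given first. The 15 nt Leu-TAA-1 and Leu-TAA-2 fragments differ by A6G, the 15 nt Lys-TTT-1 and Lys-CTT-2-M2 fragments by A7C, and the 16 nt Leu-AAG-1-M2 and Leu-AAG-2-M3 fragments by C6T.

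The members held a small share of the reads. Libraries had 1204173 to 2155977 mapped reads, of which 2142 to 5799 fell on members. The members' share of mapped reads was 0.280% ± 0.0662 at day 3, 0.202% ± 0.0372 at day 7 and 0.221% ± 0.0402 in controls (SD, n = 3 each). The range was 0.226% to 0.354% at day 3, 0.173% to 0.244% at day 7 and 0.175% to 0.251% in controls, so the groups overlapped. All listed fragments together held 56.0% to 62.1% of mapped reads at day 3, 75.3% to 78.6% at day 7 and 75.7% to 76.0% in controls, so values scaled to the listed counts sit higher at day 3.

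Within the members, levels spanned a wide range. A read covers its whole fragment, so CPM needs no correction for fragment length. Products were cut from a gel by size, however, and 14 nt was the shortest length listed. Whether recovery differed between lengths was not tested, so levels of members of different length are only roughly comparable. The 15 nt Ser-GCT-1-M4 fragment was the highest on average, with 379, 200 and 419 CPM at day 3, 130, 332 and 597 CPM at day 7, and 327, 534 and 540 CPM in controls. The 23 nt Val-AAC-1-M4 fragment, the one abundant tRF-5b, had 212, 411 and 342 CPM at day 3, 575, 241 and 204 CPM at day 7, and 289, 462 and 364 CPM in controls. For both, the libraries of the 3 groups overlapped. Next came the 15 nt Ser-AGA-1-M3 fragment, with 247, 477 and 679 CPM at day 3, 131, 347 and 209 CPM at day 7, and 204, 262 and 190 CPM in controls. Its highest libraries were at day 3, and the lowest of these lay below the highest control. The 3 together made up 39.8% ± 2.36 of member counts at day 3, 46.3% ± 6.15 at day 7 and 47.8% ± 2.11 in controls (SD, n = 3 each). The 15 members outside the naming rule averaged between 9.29 and 114 CPM.

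By length, the 15 nt members summed to 1433 ± 506 CPM at day 3, 997 ± 515 CPM at day 7 and 1088 ± 223 CPM in controls. The 16 nt members summed to 835 ± 151, 566 ± 128 and 603 ± 78.0 CPM in the same order, and the 4 tRF-5b to 385 ± 126, 373 ± 220 and 409 ± 88.0 CPM (SD, n = 3 each). The day 7 replicate 1 library stood apart. Its 15 nt members held 27.0% of its member counts, against 41.0% to 63.0% in the other 8 libraries, and its 23 nt valine fragment 30.4%, against 8.38% to 18.4%. It also had the fewest mapped reads (1204173), though control replicate 1 had nearly as few (1223377). Counts of calls with day 7 are therefore given below with and without this library. Medians and most values of single fragments or families at day 7 are given with it only.

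**Figure D2:**
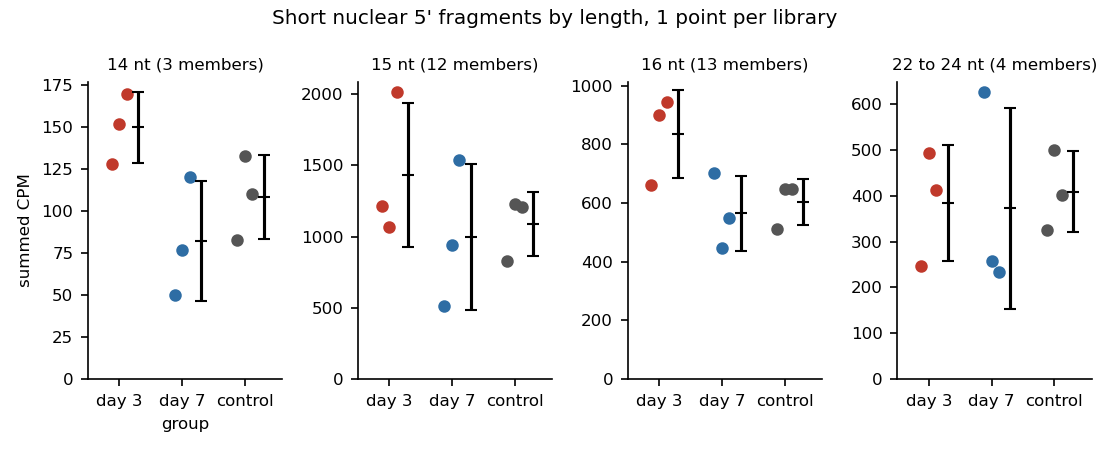
Summed CPM of the members of each length class (y axes start at 0), with 1 point per library at day 3, day 7 and in controls; the bar to the right is the mean ± SD, n = 3. The 16 nt sums at day 3 (663, 898 and 945 CPM) lay above the control sums (513, 649 and 646 CPM), while the 15 nt and 22 to 24 nt sums overlapped.

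At day 3 against control, 4 of the 32 members rose and 0 fell. This is 12.5%, where 21.5% of all 200 fragments passed in either direction and 10.0% passed as higher. The 4 were 16 nt long and came from Gly-TCC-1, Ser-GCT-1-M4, Leu-AAG-2-M3 and Ala-CGC-3-M3. Their lack of overlap with controls, given below, is not separate support, since the test chose them. The other 28 did not pass (edgeR quasi-likelihood test, Benjamini-Hochberg adjusted p below 0.05). The median log2 fold change was 0.67 over the members and -0.04 over all fragments, and 25 of 32 member values were above 0. The gap between these medians was 0.69 to 0.77 under every scaling tried, whereas scaling to the listed counts moved the median of all fragments to 0.37 and the calls over all fragments to 49 higher and 14 lower, against 20 and 23 here. For the classes beside them, medians were 0.33 for the longer nuclear 5' fragments, -1.12 for the 3' fragments and -1.01 for the trailers.

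Gly-TCC-1, 16 nt, from the tRNA that reads GGA glycine codons, had 9.44, 24.8 and 20.1 CPM at day 3, against 1.63, 5.14 and 2.32 CPM in controls. Every day 3 library was above every control. Its log2 fold change was 2.50 (SE 0.628, adjusted p = 0.0077), and the call held in all 15 alternatives that tested it. It rests on 19, 53 and 33 reads at day 3 and 2, 9 and 5 reads in controls. This fragment reached the listing minimum in day 3 libraries only, which favours a difference, and the alternatives do not remove that.

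Ala-CGC-3-M3, 16 nt, had 11.9, 39.8 and 13.4 CPM at day 3, against 1.63, 7.43 and 5.10 CPM in controls. The groups did not overlap, and day 3 replicate 2 was far above the other two. This fragment reached the listing minimum in 1 day 3 library only, which favours a difference. The log2 fold change was 2.12 (SE 0.632, adjusted p = 0.0195), and without day 3 replicate 2 it was 1.35 (adjusted p = 0.138). The call was also lost without control replicate 1 (adjusted p = 0.0843) or control replicate 3 (adjusted p = 0.0574), and with the family summed over lengths (1.03, adjusted p = 0.0569).

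Ser-GCT-1-M4, 16 nt, had 103, 129 and 167 CPM at day 3, against 48.2, 64.0 and 74.2 CPM in controls, with no overlap. Its log2 fold change was 1.06 (SE 0.371, adjusted p = 0.0474). Leaving out any 1 of the 6 libraries raised the adjusted p above 0.05 (0.0567 to 0.138). The 15 nt form of the same serine tRNAs had a value of -0.51 (SE 0.504, adjusted p = 0.462), and the family summed over its 3 lengths had -0.22 (adjusted p = 0.696).

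Leu-AAG-2-M3, 16 nt, had 26.8, 41.2 and 53.7 CPM at day 3, against 14.7, 17.7 and 23.2 CPM in controls, again with no overlap. The log2 fold change was 1.07 (SE 0.380, adjusted p = 0.0493). The call was lost without any 1 of 5 libraries, all but day 3 replicate 1 (adjusted p = 0.0829 to 0.166), and with mapped totals alone as library sizes (adjusted p = 0.0706), limma-voom (0.0547) or a fit on summed families, where it is the 1 member of its own (0.0569). The 16 nt Leu-AAG-1-M2 fragment, which differs from it by 1 base, had 157, 216 and 248 CPM at day 3, against 119, 230 and 221 CPM in controls, with overlap. Its log2 fold change was 0.10 (SE 0.361, adjusted p = 0.825).

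Some members were listed through a single group. The minimum of 20.1 CPM was reached in no control library by 8 members, among them Ala-CGC-3-M3 and Gly-TCC-1 at 16 nt. Of these 8, 6 reached it in day 3 libraries only. Listing through the high group alone favours a difference, so the counts above do not speak for all short 5' fragments of these tRNAs. It does not force a difference. The 22 nt Gly-GCC-2-M3 and 15 nt Val-TAC-1 fragments were among these 6. Their log2 fold changes at day 3 against control were 0.09 and 0.15 (edgeR, adjusted p = 0.887 and 0.806). Among the 25 members that reached the minimum in more than 1 group, 2 rose (8.0%) and 0 fell. Of the 169 such fragments of the table, 17 passed as higher, and 20.7% passed in either direction. The median log2 fold change was 0.68 over these members and -0.03 over these fragments.

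By amino acid, all 10 leucine values at day 3 were above 0 (median 0.67), as were all 4 alanine values (median 0.90) and both lysine values (median 0.91), under each of the 5 scalings; amino acids are those of the fragment names. Of the 4 alanine members, 3 reached the listing minimum in a day 3 library only, so their sign was largely fixed by the listing. Of the leucine, alanine and lysine members, 1 leucine and 1 alanine member passed the test. Serine was split, with 5 of 8 values above 0 and a median of 0.47, and glycine values ran from -0.92 to 2.50. Summed CPM of the leucine members were 863 ± 244 at day 3, against 614 ± 121 in controls, and those of the alanine members 81.8 ± 35.8, against 39.5 ± 18.5 (SD, n = 3 each). The serine members summed to 1242 ± 329 CPM at day 3, against 965 ± 164 CPM in controls, and the lysine members to 134 ± 65.5, against 68.2 ± 21.1. Members of 1 amino acid share parents and libraries, so a common direction is not a count of independent results.

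Lysine members were near the threshold. Lys-TTT-1, 15 nt, had 54.7, 61.3 and 125 CPM at day 3, against 24.5, 48.0 and 44.5 CPM in controls. Each day 3 library was above each control. The log2 fold change was 1.00 (SE 0.361, adjusted p = 0.0505), and with relative log expression factors the adjusted p was 0.0317. Lys-CTT-2-M2, the other lysine member and outside the naming rule, had 0.82 (SE 0.376, adjusted p = 0.099).

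Several abundant or leading members did not pass at day 3. Ser-AGA-1-M3 at 15 nt had a value of 1.04 (SE 0.454, adjusted p = 0.0888), and the 23 nt Val-AAC-1-M4 fragment had -0.24 (SE 0.382, adjusted p = 0.649). Leu-TAA-2 at 15 nt had 165, 91.7 and 219 CPM at day 3, 44.8, 83.7 and 327 CPM at day 7, and 96.5, 117 and 149 CPM in controls. All 3 groups overlapped for this leucine fragment. Gly-ACC-1-M8 at 15 nt, which is named for glycine but matches mostly valine genes, had 36.8, 33.7 and 42.1 CPM at day 3, 46.5, 26.8 and 41.4 CPM at day 7, and 24.5, 49.1 and 51.9 CPM in controls. Tyr-GTA-3-M2, the single tyrosine member, had 23.4, 20.6 and 35.4 CPM at day 3, 58.1, 16.7 and 22.1 CPM at day 7, and 27.8, 36.6 and 30.1 CPM in controls. Both overlapped between groups, and the highest tyrosine value was in day 7 replicate 1. The most abundant alanine member, Ala-AGC-3-M12 at 15 nt, had 20.9, 35.5 and 28.7 CPM at day 3, 6.64, 10.0 and 13.1 CPM at day 7, and 10.6, 23.4 and 13.0 CPM in controls; its day 3 value of 0.82 did not pass (SE 0.438, adjusted p = 0.157).

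None of the 4 tRF-5b passed in any of the 3 comparisons. Beside the valine fragment they were 22 nt and 24 nt Gly-GCC-2-M3 fragments and a 24 nt Ala-AGC-3-M8 fragment, which end near the far side of the D arm. The 24 nt glycine fragment, chosen after its values were seen, had 20.9, 45.8 and 25.0 CPM at day 3, against 17.2, 8.57 and 9.74 CPM in controls, with no overlap (log2 fold change 1.34, SE 0.482, adjusted p = 0.0505). The 16 nt form of the same tRNAs had the opposite sign, -0.92 (SE 0.384, adjusted p = 0.0806).

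**Figure D3:**
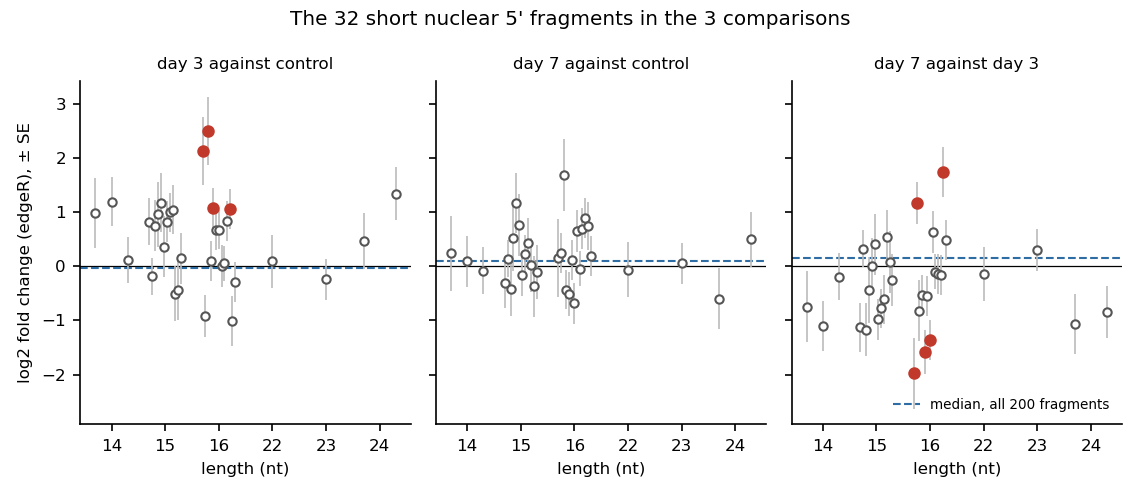
Log2 fold change ± SE (edgeR; y axis) of each of the 32 members by length in nt (x axis) in the 3 comparisons; filled red points passed at an adjusted p below 0.05, and the dashed line is the median of all 200 fragments. All filled points are at 16 nt: 4 at day 3 against control, 0 at day 7 against control and 5 at day 7 against day 3.

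In the edgeR fit as reported, all members that passed in any comparison were 16 nt long: 7 distinct fragments of the 13 of that length, against 0 of the 12 of 15 nt. At day 3 against control 30.8% of the 16 nt members passed, beside 21.5% of all 200 fragments. For day 7 against day 3 these shares were 38.5% and 34.5%, and for day 7 against control 0.0% and 4.0%. Of the 7, Gly-TCC-1, Ala-CGC-3-M3 and Ser-TGA-1 were listed only through the group where they were high. The split by length did not hold under every setting. At 15 nt, Ala-AGC-3-M12 passed as lower at day 7 than at day 3 with RLE (relative log expression) factors (adjusted p = 0.0262), mapped totals (0.0263) and DESeq2 (0.0242), and Lys-TTT-1 passed in the same direction with DESeq2 (adjusted p = 0.0353). At day 3 against control, Lys-TTT-1 and Ser-AGA-1-M3 at 15 nt passed with DESeq2 (adjusted p = 0.0292 and 0.0498), and Leu-TAA-1 with the 2 groups alone (adjusted p = 0.044). The 2 lengths were not tested with equal precision, since the 15 nt members varied more between libraries. Whether that spread is technical was not tested. Their median coefficient of variation was 46.9% at day 3, 58.9% at day 7 and 25.8% in controls, against 29.8%, 35.2% and 21.1% in the same groups for 16 nt. The 2 lengths are therefore also compared by ratios within each library, given further below. Such ratios still carry the spread of the 15 nt counts.

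At day 7 against control, 0 of the 32 members passed with edgeR, and 0 with DESeq2 or limma-voom, where 4.0% of all 200 fragments passed with edgeR. At an unadjusted p below 0.05 there were 3 members. Gly-TCC-1 at 16 nt had 15.8, 7.26 and 3.45 CPM at day 7, against 1.63, 5.14 and 2.32 CPM in controls, with overlap (log2 fold change 1.68, SE 0.664, adjusted p = 0.152). Ser-GCT-1-M4 at 16 nt had 78.1, 76.5 and 120 CPM at day 7, each above the 3 controls (0.89, SE 0.372, adjusted p = 0.181). Leu-TAA-1 at 15 nt had 15.8, 30.7 and 86.2 CPM at day 7, against 27.8, 23.4 and 26.9 CPM in controls, with overlap (1.17, SE 0.552, adjusted p = 0.246). The median over members was 0.13, beside 0.09 over all fragments, and it changed sign with the scaling (-0.17 when scaled to the listed counts, where that of all fragments was -0.19). Without day 7 replicate 1 the count also stayed at 0.

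At day 7 against day 3, 2 members rose and 3 fell. Those 5 are 15.6% of the members, where 34.5% of all 200 fragments passed, 23.0% as higher and 11.5% as lower. Among the 25 members that reached the listing minimum in more than 1 group, 3 passed (12.0%), beside 30.8% of the 169 such fragments. The median was -0.34 over the members and 0.15 over all fragments, a gap of -0.49 to -0.61 over the 5 scalings. The split of calls moved with the scaling: with RLE factors 1 member rose and 8 fell, and scaled to the listed counts 0 rose and 14 fell. Over all 200 fragments 46 rose and 23 fell here, against 9 and 63 when scaled to the listed counts. These values share the day 3 libraries with the comparison of day 3 and control, so a high day 3 level enters both.

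Of the 3 that fell, 2 were leucine fragments. Leu-AAG-2-M3, 16 nt, had 16.6, 6.14 and 11.0 CPM at day 7, against 26.8, 41.2 and 53.7 CPM at day 3, with no overlap. It fell by 1.58 on the log2 scale (SE 0.401, adjusted p = 0.00759). Leu-CAG-1-M3, 16 nt, had 23.3, 16.7 and 24.8 CPM at day 7, against 72.1, 49.6 and 86.7 CPM at day 3, again with no overlap. It fell by 1.36 (SE 0.373, adjusted p = 0.0114), and its control libraries had 24.5, 44.6 and 58.4 CPM. Both calls held in all 15 alternatives that tested the fragment itself; with its family summed over lengths, Leu-CAG-1-M3 had -0.68 (adjusted p = 0.229). Ala-CGC-3-M3, 16 nt, had 4.15, 2.23 and 6.90 CPM at day 7, below all 3 day 3 libraries, and fell by 1.97 (SE 0.654, adjusted p = 0.0252). Without day 3 replicate 2 its value was -1.20 (adjusted p = 0.179), without day 7 replicate 1 the adjusted p was 0.106 and without day 7 replicate 2 it was 0.0896. With limma-voom it was 0.0591.

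A serine and a glycine fragment were higher at day 7. Ser-TGA-1, 16 nt, had 26.6, 13.4 and 21.4 CPM at day 7, against 6.96, 6.08 and 9.16 CPM at day 3, and 12.3, 12.0 and 19.0 CPM in controls. Day 7 and day 3 did not overlap. Its log2 fold change was 1.75 (SE 0.462, adjusted p = 0.0101); scaled to the listed counts it was 1.07 (adjusted p = 0.143), and summed with its 15 nt form 0.81 (adjusted p = 0.112). It reached the listing minimum in day 7 libraries only. Gly-GCC-2-M3, 16 nt, had 59.0, 24.6 and 24.8 CPM at day 7, against 17.9, 26.7 and 11.0 CPM at day 3, and these overlapped. Its log2 fold change was 1.17 (SE 0.386, adjusted p = 0.0252), and without day 7 replicate 1 it was 0.90 (adjusted p = 0.121). The call was kept in 6 of 14 alternatives. It was also lost without day 3 replicate 1 (adjusted p = 0.0768) or replicate 3 (0.0868), with RLE factors (0.0671), DESeq2 (0.0836), mapped totals (0.102) or the 2 groups alone (0.092), and scaled to the listed counts (0.57, adjusted p = 0.332). With its family summed over lengths the value was 0.10 (adjusted p = 0.845). Without day 7 replicate 1, 3 members passed: the leucine pair and Ser-TGA-1.

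**Figure D4:**
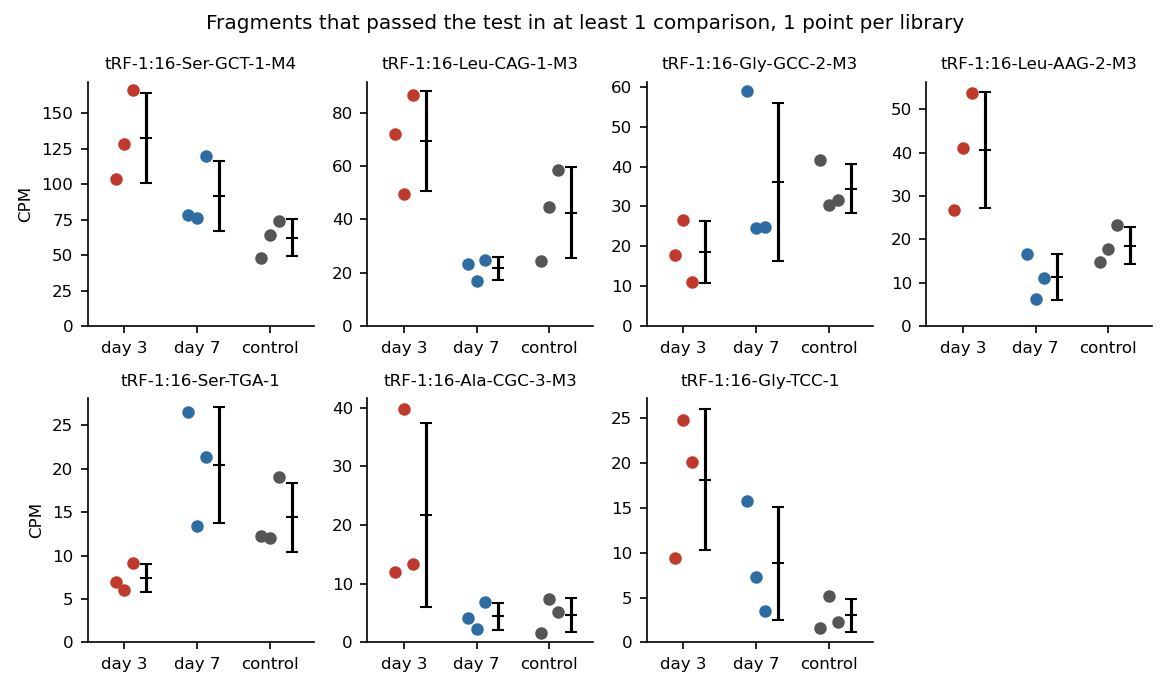
CPM (y axes start at 0) of the 7 members that passed in at least 1 comparison, with 1 point per library at day 3, day 7 and in controls; the bar to the right is the mean ± SD, n = 3. Day 3 libraries lie above all controls in the Ser-GCT-1-M4, Leu-AAG-2-M3, Ala-CGC-3-M3 and Gly-TCC-1 panels, and a single day 7 library is high in the Gly-GCC-2-M3 panel.

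The ratio of 16 nt to 15 nt reads with the same first 14 bases does not depend on how a library is scaled. Whether recovery of the 2 lengths at the gel step differed between libraries was not tested. It could be formed in 7 families and was chosen after the data were seen, so it is described with no test. In the Ser-GCT family there were 43.8 ± 18.8 reads of 16 nt per 100 reads of 15 nt at day 3, 34.3 ± 22.2 at day 7 and 13.5 ± 1.40 in controls (SD, n = 3 each). Each lasered library was above each control: 27.3, 64.3 and 39.8 at day 3 and 59.9, 23.1 and 20.1 at day 7, against 14.8, 12.0 and 13.7 in controls. The alanine family gave 57.1, 112 and 46.8 reads per 100 at day 3, against 15.4, 31.7 and 39.3 in controls, also with no overlap. Its 16 nt member matches 3 Ala-CGC genes and was listed through a day 3 library only, while its 15 nt member matches 12 alanine genes, so this ratio mixes tRNAs and its direction was partly fixed by the listing. Ser-TGA-1, whose 16 nt form was listed through day 7 libraries only, gave 800, 114 and 103 at day 7, against 46.7, 72.2 and 39.5 at day 3 and 88.2, 63.6 and 67.2 in controls. The first of these day 7 values is replicate 1, with 32 reads of 16 nt and 4 of 15 nt. On the log2 scale the day 7 ratio was 1.49 above controls with that library and 0.58 without it; for the Ser-GCT family these values were 1.17 and 0.68. The other 4 families, all leucine or Ser-AGA, overlapped between day 3 and controls and between day 7 and controls. Over the 7, the ratio was on average higher at day 3 than in controls in 2 and lower in 5. It was higher at day 7 than in controls in 6 and lower in 1, and higher at day 7 than at day 3 in 5 and lower in 2. The 2 lengths differ by the base after the G that ends the 15 nt form.

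**Figure D5:**
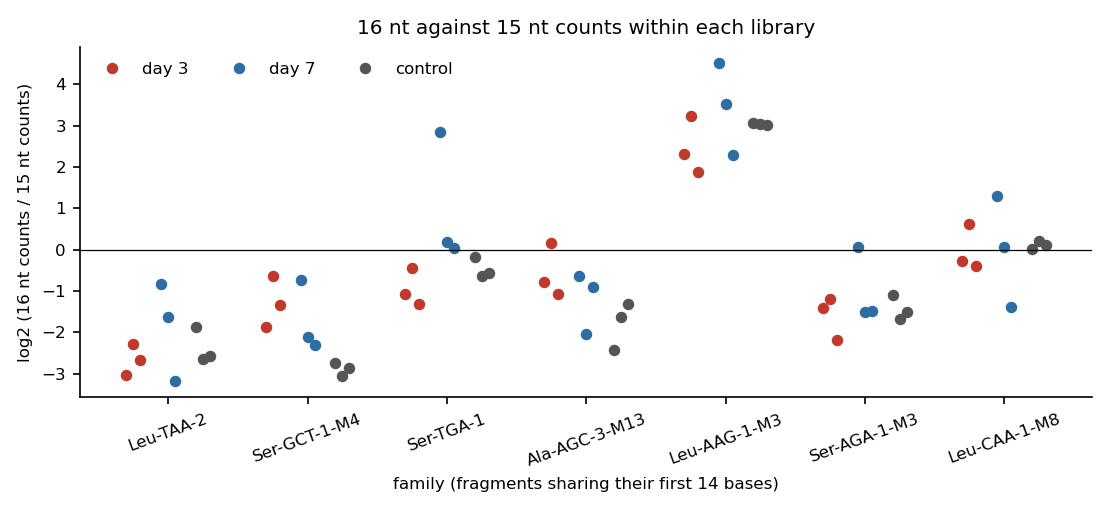
Log2 of 16 nt over 15 nt counts (0.5 count added to each; y axis) in each library, for the 7 families that have both lengths (x axis), at day 3, day 7 and in controls. The Ser-GCT-1-M4 points of both lasered groups lie above the 3 control points, while most other families overlap; day 7 replicate 1 is the highest day 7 point in each family.

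Short fragments were also set against the longer 5' fragments of the same first 14 bases, in the 7 families that have both. These families hold 13 members; the other 9 families, with 19 members, had no longer form in the table. Abundance differed widely: in controls there were 24.4 ± 7.85 short reads per 100 longer reads for Lys-TTT-1 but 0.00848 ± 0.00142 for the Gly-GCC-2-M3 family, whose longer forms, of Gly-GCC and Gly-CCC tRNAs, took 864429 to 1512691 reads in controls. At day 3 Lys-TTT-1 had 50.2, 91.6 and 94.5 short per 100 longer reads, against 15.9, 31.3 and 25.9 in controls. Gly-TCC-1 had 16.5, 29.9 and 50.0 at day 3, against 4.17, 7.09 and 5.56 in controls. Lys-CTT-2-M2 had 0.393, 0.394 and 0.546 at day 3, against 0.231, 0.283 and 0.301 in controls. In these 3 of the 7 families every day 3 library was above every control. No share over all fragments is set beside this count. The short Gly-TCC-1 fragment reached the listing minimum in day 3 libraries only, so the direction of its ratio was partly fixed by the listing. The ratio of the Gly-ACC-1-M8 and 23 nt valine family went the other way. It had 2.28, 4.23 and 3.46 short per 100 longer reads at day 3, against 6.30, 7.08 and 6.87 in controls. In unscaled reads, its longer forms took 21900, 22442 and 18179 at day 3, against 6099, 12633 and 13035 in controls. Its short forms took 500, 950 and 629, against 384, 894 and 896, with overlap. The lower ratio of this family is thus not by itself a fall of its short fragments. Its longer forms are valine fragments, and the 15 nt member, glycine by its name, matches 7 valine genes and 1 glycine gene. The remaining families, Gly-GCC-2-M3, Ala-AGC-3-M13 and Val-TAC-1, overlapped between day 3 and controls. At day 7 the Lys-TTT-1 ratio was 28.7 ± 6.39 (SD, n = 3) and overlapped with controls. Val-TAC-1 had 18.4, 23.2 and 19.6 at day 7, against 35.0, 30.3 and 34.9 in controls, the single family below all controls at that time.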

How the data were processed

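The authors deposited a single table with raw read counts and CPM of each tRNA fragment in 9 libraries, per the file headers. Each deposited CPM was its count scaled to 1 total per library, taken here as the mapped reads. The submitters' processing notes name FastQC, Bowtie, edgeR and the build mm10, with no versions, and their roles are not given in the sources used here. Per the labels' protocols, RNA was deacylated, freed of cyclic phosphates, phosphorylated at 5' ends and demethylated before ligation, and products of 134 to 160 bp were cut from a gel. In all, 7 lines were empty and 0 per-sample columns were left unmapped. Items below the listing minimum were not analysed here.

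Differences were tested in the counts of all 200 fragments with edgeR 4.0.16 (R 4.3.3): library sizes were the mapped totals times TMM factors (trimmed mean of M values; 0.749 to 1.14), filterByExpr (0 fragments removed), 1 mean per group over 9 libraries and two-sided quasi-likelihood F tests. P-values were adjusted by the Benjamini-Hochberg method over the 200 fragments, with a threshold of 0.05. The SE is the log2 fold change divided by the square root of F. Levels are means of deposited CPM with SD, so their ratios differ from the fitted folds by the TMM factors. Ratios between lengths are counts in 1 library over counts in the same library, with 0.5 count added on the log2 scale. Fragments were named if they passed in any comparison, were among the 5 highest by mean CPM, were the highest of their amino acid, or, where fewer than 3 passed, had the 3 smallest unadjusted p. The members and lists were chosen with earlier results of these data known. Alternatives were DESeq2 1.42.0, limma-voom (limma 3.58.1), relative log expression (RLE) factors, other scalings, thresholds and filters, summed families, fits of 2 groups, a replicate block and each library left out. The ratio of 16 nt to 15 nt counts was added after the data were seen. The code was tested on simulated data.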

Additional observations from a re-analysis of the deposited data

Results flagged for a closer look

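The direct comparison of day 7 with day 3 passed the test in 5 of the 32 short 5' fragments (edgeR, n = 3 each). This is 15.6%, beside 34.5% of all 200 fragments. The log2 fold changes of day 7 against day 3 were -1.36 for tRF-1:16-Leu-CAG-1-M3 (adjusted p = 0.0114), -1.58 for tRF-1:16-Leu-AAG-2-M3 (adjusted p = 0.00759) and -1.97 for tRF-1:16-Ala-CGC-3-M3 (adjusted p = 0.0252). They were 1.75 for tRF-1:16-Ser-TGA-1 (adjusted p = 0.0101) and 1.17 for tRF-1:16-Gly-GCC-2-M3 (adjusted p = 0.0252). In all but Gly-GCC-2-M3 the libraries of the 2 times did not overlap, which is not separate support, since the test chose these fragments. Ser-TGA-1 reached the listing minimum in day 7 libraries only and Ala-CGC-3-M3 in a day 3 library only. Each was thus listed through its high group, which favours a difference. The Gly-GCC-2-M3 call was kept in 6 of 14 alternatives.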

How the results depend on the processing

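At day 3 against control 4 of 32 members passed. The count was 12 at an adjusted p below 0.1 (10 higher, 2 lower), 12 when scaled to the listed counts, 8 with the 2 groups alone, 7 with RLE factors, 7 with DESeq2, 1 of 16 with families summed and 1 of 6 at a mean of at least 100 CPM. With each library left out it was 1 to 5: 1 without day 3 replicate 2 or control replicate 3, and 2 without control replicate 1 or 2. Calls over all 200 fragments moved as well. At day 3, 49 were higher and 14 lower when scaled to the listed counts. With RLE factors these counts were 27 and 22, against 20 and 23 in the edgeR fit as reported. At day 7 against day 3 the count of 5 became 14 when scaled to the listed counts, 10 at an adjusted p below 0.1, 9 each with RLE factors, mapped totals without TMM, DESeq2 or a fit without Gly-GCC fragments, 3 of 16 with families summed and 0 of 6 at 100 CPM. With each library left out it was 3 (without day 7 replicate 1) to 9 (without day 7 replicate 3). Over all 200 fragments, 9 were higher and 63 lower when scaled to the listed counts. With RLE factors these counts were 37 and 35, and with mapped totals 30 and 39, against 46 and 23 as reported. At day 7 against control the count of members was 0 in every setting run. The reversed value was that of tRF-1:16-Ser-GCT-1-M4 at day 3, -0.22 with its family summed, where the 15 nt form holds most reads. Summed CPM of the members at day 3 over control gave a log2 ratio of 0.34, and 0.72 as a share of the listed counts, since the listed share was lower at day 3. The cause of the other shifts was not tested. Libraries with the same number showed no clear pairing (correlation over 0.1 in 2 of 9 cases, range -0.340 to 0.323), which does not exclude it. With a replicate block 5 members passed at day 3, 0 at day 7 and 7 at day 7 against day 3. Depth limits the least abundant members, some of which had under 10 reads in a library.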
